A study of Mus musculus with 3 samples.

Results

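The clustered histone genes are the members of the mouse histone gene clusters, taken here as every gene whose symbol begins with Hist, a cluster number from 1 to 4 and h. This rule found 70 of the 49585 genes in each table, with 6 genes for the linker histone H1, 20 for H2A, 19 for H2B, 12 for H3 and 13 for H4. Cluster 1 held 56 of them, cluster 2 held 10, cluster 3 held 3 and cluster 4 held 1. Midbrain of C57BL/6 pups at postnatal day 3 was frozen, total RNA was extracted with Trizol and libraries were made with an Illumina TruSeq RNA kit, without a statement of whether poly(A) RNA was selected. There were 2 libraries whose genotype is given as FGR and 1 wild-type (WT) library, all of the same strain, age and source. FGR is not spelled out in the labels, and no allele or driver is named. Whether each library is a different pup is not stated. The 2 FGR libraries differed in sex-linked genes, given below, so they were not repeats of 1 RNA sample. The only replicate spread behind the p-values is that between these 2 libraries, which includes that difference in sex and may be technical in part. The test moderated each gene's spread with that of the other tested genes, so no p-value measures 1 gene's spread alone.

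Histone proteins package DNA into nucleosomes, with H2A, H2B, H3 and H4 forming the core and H1 binding the DNA between cores. Genes of the clusters are mostly transcribed in S phase, when new DNA is wrapped, and their mRNAs end in a short stem-loop, bound by the protein Slbp, in place of a poly(A) tail. Some cluster genes can also make longer, polyadenylated mRNAs that persist in cells that have stopped dividing, and in newborn midbrain dividing cells are mainly progenitors, glial precursors and cells of vessels and meninges.

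The stem-loop is shown because it divides the members by type and because its place in the transcript model is used below. In GENCODE M21 transcript models, 43 of the 70 members held the pattern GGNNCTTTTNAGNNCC, searched on the transcript strand in the longest model, against 0.0813% of 55380 other genes with a match in any transcript. The 6 forms found are given 5′ to 3′ as DNA, with the arms of the stem in capitals and the loop in lower case.
Form shared by 25 H1, H2A, H2B and H3 members: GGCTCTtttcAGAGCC
Form of 7 H4 members: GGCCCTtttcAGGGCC
Form of 6 H1, H2B and H3 members: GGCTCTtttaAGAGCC
Form of Hist1h4i and Hist2h4: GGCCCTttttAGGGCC
Form of Hist1h4b and Hist1h4j: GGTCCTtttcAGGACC
Form of Hist2h2ac: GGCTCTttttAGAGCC
Each of the 11 H4 members with a match had a form whose stem differed from that of the other types. The other members had models that stop before this point or hold no match, so no match says only that these letters are not in the model used.

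Promoters were matched for 61 members in RefSeq on GRCm38.p6, from 250 bases before to 50 bases after the start. The following short motifs were searched on both strands, ATTTGCAT (the octamer of H2B promoters, bound by Pou2f1), TATAAA and CCAAT. The octamer stood in 6 of 16 H2B and 7 of 17 H2A promoters and in 0 of the H1, H3 and H4 promoters, against 1.75% of 27025 promoters in the table. CCAAT stood in every matched H1, H2A, H2B and H3 promoter and in 3 of 12 H4 promoters, against 37.9% of all. TATAAA stood in 35 of the 61, against 14.2% of all. The promoters of Hist1h2ag, the called member with the second lowest fold change, of Hist1h2bk, which differed most between the FGR libraries among H2B genes, and of Hist3h2ba, the member that rose, are shown with these motifs in capitals.
Hist1h2ag, chr13:22042900-22043199, minus strand: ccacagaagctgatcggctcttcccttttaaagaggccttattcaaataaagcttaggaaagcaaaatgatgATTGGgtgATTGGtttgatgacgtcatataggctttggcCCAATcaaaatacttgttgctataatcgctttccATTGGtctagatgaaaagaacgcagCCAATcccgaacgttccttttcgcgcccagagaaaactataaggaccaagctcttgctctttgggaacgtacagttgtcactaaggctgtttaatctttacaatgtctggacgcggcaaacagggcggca
Hist1h2bk, chr13:22035571-22035870, plus strand: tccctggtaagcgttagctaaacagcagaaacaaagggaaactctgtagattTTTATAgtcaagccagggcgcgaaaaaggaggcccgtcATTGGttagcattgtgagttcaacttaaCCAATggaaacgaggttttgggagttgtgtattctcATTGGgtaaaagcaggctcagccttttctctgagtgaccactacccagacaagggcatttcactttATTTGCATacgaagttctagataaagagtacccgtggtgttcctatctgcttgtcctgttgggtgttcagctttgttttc
Hist3h2ba, chr11:58948661-58948960, plus strand: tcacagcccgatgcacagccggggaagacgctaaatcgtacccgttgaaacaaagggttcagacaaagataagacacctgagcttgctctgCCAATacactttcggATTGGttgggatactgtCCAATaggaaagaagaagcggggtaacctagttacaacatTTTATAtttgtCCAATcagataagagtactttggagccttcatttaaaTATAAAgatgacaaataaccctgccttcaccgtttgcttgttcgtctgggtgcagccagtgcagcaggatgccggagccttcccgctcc
The octamer was found in the promoter of Hist1h2bk and not in the other two. Among tested H2B genes the median log2 fold change of FGR over WT was -0.50 for the 6 with the octamer and -0.53 for the 10 without it. The median log2 ratio of FGR replicate 1 over replicate 2 was -0.68 with it and -0.84 without it. For tested H2A genes the median fold changes were -0.45 with and -0.56 without the octamer, and the median ratios -0.38 and -0.28.

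CPM here means counts relative to the library's total after TMM scaling. Total counts were 58444481 and 46240262 in FGR replicates 1 and 2 and 52874311 in WT. Fell and rose mean called lower or higher in FGR by edgeR at an adjusted p under 0.05. Of all tested genes, 2.59% fell and 1.66% rose. All 12 markers on a midbrain list had counts above 0 in every library, and 5 rose and 1 fell. Of hypothalamus and ventral forebrain markers 10 of 14 fell, as did 7 of 10 of leptomeningeal fibroblasts, and 5 of 6 tested erythroid genes rose. In the hypothalamus and ventral forebrain list, 12 of 14 markers were below WT in both FGR libraries and 2 above. The list summed to 13.7 and 14.1 CPM in FGR replicates 1 and 2, against 64.1 CPM in WT. DESeq2 called 4 of these markers lower, limma-voom 10 and the robust fit of edgeR 10. Among genes with a mean of at least 1 CPM, 7 of them were called lower. For the leptomeningeal list DESeq2, the robust fit and the fit at a mean of at least 1 CPM each called 0. There 9 of 10 were lower at an unadjusted p under 0.05 in edgeR, and limma-voom called 8 lower. Xist had 34285 and 78 counts in FGR replicates 1 and 2 and 29129 in WT, and the Y-linked gene Ddx3y had 2, 2944 and 0. By these genes FGR replicate 1 and WT were alike and FGR replicate 2 differed, so sex and the gap between the FGR libraries cannot be told apart; the larger histone difference from WT, given below, was that of FGR replicate 1. Litter and dissection cannot be told apart from the groups.

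Summed over the family, clustered histone transcripts were lower in both FGR libraries than in the 1 WT library. The difference from WT was larger in FGR replicate 1 than in FGR replicate 2. The H4 sum in FGR replicate 2 and the sums of clusters 3 and 4 in both FGR libraries were not below WT. The members that fell were H3 genes, cluster 1 H2A genes and 1 H1 gene, and 1 H2B gene rose. By edgeR's quasi-likelihood test with Benjamini-Hochberg adjustment over 25561 genes, 16 members fell and 1 rose at an adjusted p under 0.05, against 4.25% of all tested genes called in either direction. The 68 members that passed the filter on low counts had a median log2 fold change of -0.47, against 0.01 for all genes tested. The 16 that fell were 23.5% of the tested members, against 2.59% of all tested genes, and for the rise the background was 1.66%. The share of their 50-base windows that occurred in other members ran from 2.21% (Hist1h1d) to 93.9% (Hist1h3h). It was 93.5% for Hist1h2ao, 93.1% for Hist1h2ap and 90.7% for Hist1h2ah, against 24.8% for Hist1h3d and 34.7% for Hist2h3c1. How reads matching several copies were counted is not known, so the 16 calls may not be independent of each other. Both FGR libraries lay below WT for 54 of the 68, or 79.4%, against 38.2% of all tested genes. Both lay above WT for 4, against 38.5%. At an unadjusted p under 0.05 in edgeR, 42 members were lower and 3 higher, against 2535 and 2150 of all 25561 tested genes. Later counts at that threshold in this fit have the same background. In bulk tissue, fewer cells of a type and less RNA per cell cannot be told apart. Hist1h1t, a testis H1 gene, had 8, 2 and 6 counts in FGR replicate 1, FGR replicate 2 and WT, and Hist1h2aa, a testis H2A gene, had 0 in each; neither was tested.

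These calls depended on the filter. When only genes with a mean of at least 1 CPM were fitted, edgeR called 0 members, against 1.08% of its genes lower and 0.536% higher, with 29 members lower at an unadjusted p under 0.05 and a lowest adjusted p of 0.0543. With no filter 46 fell, against 3.8% of the genes in that fit, and 2 rose, against 1.94%. DESeq2 called 8 members lower and 0 higher, against 1.4% of its genes lower. For limma-voom the counts were 21 and 0, against 2.86% lower. For edgeR with a robust fit they were 7 and 2, against 2.83% of its genes lower and 509 of 25561 higher. The fold changes themselves moved little, with a median of -0.46 in the narrower fit and -0.47 with no filter.

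**Figure D1:**
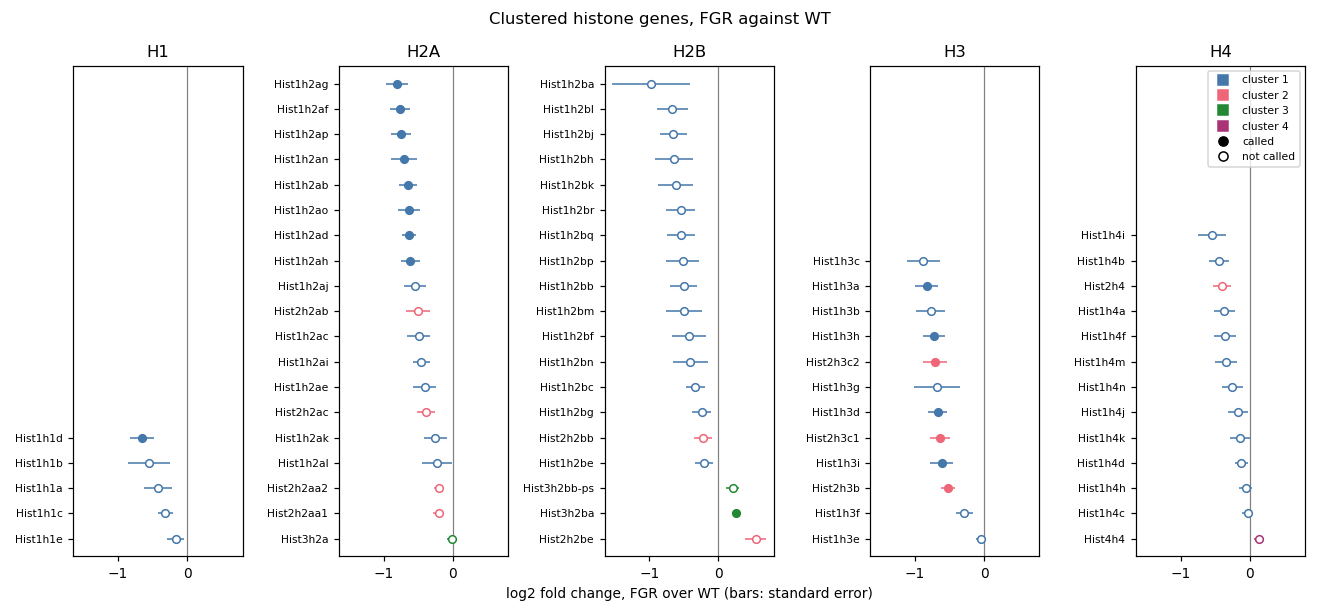
Log2 fold change of FGR over WT for the 68 tested members, by histone type, with the standard error as bars, colour for the cluster and filled symbols for members called by edgeR. Filled symbols stand left of 0 for 8 H2A, 7 H3 and 1 H1 gene and right of 0 for Hist3h2ba.

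H3 genes, which encode the core histone whose tail carries many regulatory marks, had the lowest median of the types. Of 12 members 7 fell, both FGR libraries lay below WT for all 12, and the median log2 fold change was -0.68. Hist1h3a was at 14.9 and 22.1 CPM in FGR replicates 1 and 2, against 32.8 CPM in WT. Both FGR values were below WT, replicate 1 the further, with a log2 fold change of -0.83 ± 0.16 (SE; adjusted p = 0.0115), a call lost in DESeq2 (adjusted p = 0.588) and in the robust fit (adjusted p = 0.449). Of the 7 calls, 4 were also made by DESeq2, 2 by the robust fit and 7 by limma-voom. Hist2h3b was at 22.8 and 24.4 CPM in the FGR libraries, against 33.8 CPM in WT, with adjusted p = 0.0100 and a log2 fold change of -0.52 ± 0.10 (SE). Here the FGR libraries lay close together. The other called H3 genes were Hist1h3d, Hist1h3h, Hist1h3i, Hist2h3c1 and Hist2h3c2, with log2 fold changes between -0.73 and -0.61. Hist1h3c had the lowest fold change of any member above 1 CPM, with 12.3 and 23.9 CPM in the FGR libraries against 33.0 CPM in WT, and was not called (adjusted p = 0.0523; log2 fold change -0.88 ± 0.24). Hist1h3b stood at 19.6 and 35.4 CPM in FGR, against 46.7 CPM in WT (adjusted p = 0.0518). Hist1h3f was at 38.5 and 51.6 CPM in FGR and 54.7 CPM in WT (adjusted p = 0.212). Hist1h3e, the most abundant H3 gene by CPM, was at 55.2 and 56.6 CPM in FGR and 57.7 CPM in WT, and the groups differed by little more than the FGR libraries did from each other.

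H2A genes encode the core histone that pairs with H2B. Of 20 members 19 were tested and 8 fell, all in cluster 1, with a median log2 fold change of -0.50 over the 19. DESeq2 and the robust fit each also called 4 of the 8, and limma-voom 8. Hist1h2ad had the lowest adjusted p of any member: it was at 25.96 and 31.15 CPM in the FGR libraries, against 44.1 CPM in WT, with adjusted p = 0.00383 and a log2 fold change of -0.63 ± 0.10 (SE). Hist1h2ag was at 11.2 and 15.2 CPM in FGR and 23.0 CPM in WT (log2 fold change -0.80 ± 0.16, adjusted p = 0.00977), and Hist1h2af at 10.8 and 13.2 CPM in FGR and 20.3 CPM in WT (log2 fold change -0.76 ± 0.14, adjusted p = 0.00802). In each of these both FGR libraries were below WT, replicate 1 the further. Hist1h2ab, Hist1h2ah, Hist1h2an, Hist1h2ao and Hist1h2ap also fell, with log2 fold changes between -0.75 and -0.61; Hist1h2an stood nearest the threshold, at an adjusted p of 0.0497. The most abundant member of all, Hist2h2aa1, was at 128.6 and 143.8 CPM in FGR, against 156.5 CPM in WT (log2 fold change -0.20 ± 0.08, adjusted p = 0.182). Its near-identical copy Hist2h2aa2 had the same fold change to 2 decimals, and all of its windows of 50 bases occurred in other members, so the split of reads between them is uncertain. Hist3h2a, of cluster 3, was at 106.8 and 114.3 CPM in FGR and 111.2 CPM in WT, with WT between the FGR libraries.

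H2B genes had nearly the same median log2 fold change as H2A genes, -0.49, yet edgeR called 0 of 19 lower, with 9 lower at an unadjusted p under 0.05; limma-voom called 1 lower, and DESeq2 and the robust fit 0. With no filter on low counts edgeR called 11 H2B genes lower, against 3.8% of all genes in that fit. Their FGR libraries differed more: the median of log2 FGR replicate 1 over FGR replicate 2 was -0.72 for H2B and -0.36 for H2A, and the median standard error of the fold change 0.21 for H2B and 0.15 for H2A. Hist1h2bk was at 16.9 and 35.1 CPM in FGR replicates 1 and 2, against 39.6 CPM in WT (adjusted p = 0.205). Replicate 1 stood apart there and replicate 2 near WT. Hist1h2br was at 23.6 and 43.6 CPM in FGR and 48.8 CPM in WT, and Hist1h2bg at 29.4 and 40.6 CPM in FGR and 41.3 CPM in WT, in the same order. Hist1h2ba, a testis H2B gene and the lowest of all in fold change, had 13, 16 and 30 counts in FGR replicate 1, FGR replicate 2 and WT, and was not called (adjusted p = 0.389).

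The H2B member that rose was Hist3h2ba, at 99.0 and 101.4 CPM in FGR, against 83.7 CPM in WT, with adjusted p = 0.0415 and a log2 fold change of 0.26 ± 0.07 (SE). The FGR libraries were close to each other and above WT. This call was lost in DESeq2 (adjusted p = 0.254), in limma-voom (adjusted p = 0.0627) and with libraries scaled by their totals alone. Its neighbour in cluster 3, the pseudogene Hist3h2bb-ps, was at 34.4 and 36.3 CPM in FGR and 30.7 CPM in WT (adjusted p = 0.244). Hist2h2be, whose model has no stem-loop match and ends with a poly(A) signal, was at 9.12 and 9.47 CPM in FGR, against 6.39 CPM in WT, with the largest fold change upward of any member (log2 0.54 ± 0.15, adjusted p = 0.0589).

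H4 genes, for the core partner of H3, had the smallest median fold change of the types, -0.25. None of 13 was called by edgeR, DESeq2, limma-voom or the robust fit, with 5 lower at an unadjusted p under 0.05 in edgeR and 6 called lower with no filter, where the share over all genes was 3.8%. Hist1h4c was at 89.5 and 105.3 CPM in FGR replicates 1 and 2, against 99.4 CPM in WT. Hist1h4h was at 83.0 and 101.4 CPM in FGR and 95.7 CPM in WT, and Hist1h4d at 58.9 and 74.0 CPM in FGR and 72.1 CPM in WT. In all 3, WT lay between the FGR libraries. Hist4h4, the only gene of cluster 4, was at 49.5 and 52.2 CPM in FGR and 46.4 CPM in WT (adjusted p = 0.363).

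H1 genes encode linker histones. Hist1h1d was the 1 of 5 tested that fell, at 20.9 and 33.0 CPM in FGR against 42.2 CPM in WT (log2 fold change -0.65 ± 0.17, adjusted p = 0.0472). This call was lost in DESeq2 (adjusted p = 0.822) and in the robust fit (adjusted p = 0.705). Hist1h1c, the most abundant, was at 57.0 and 76.0 CPM in FGR and 82.6 CPM in WT (adjusted p = 0.141), and Hist1h1e at 45.98 and 63.6 CPM in FGR and 61.4 CPM in WT. Hist1h1b, none of whose 50-base windows occurred in another member, was at 8.79 and 21.3 CPM in FGR and 22.0 CPM in WT, so replicate 1 alone stood low.

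Per length, in the RPKM values the authors deposited, Hist1h4c, Hist2h2aa1 and Hist2h2aa2 stood highest. Hist2h2aa2 was at 232.5 and 255.5 RPKM in FGR and 288.2 RPKM in WT, and Hist1h4c at 224.9 and 263.5 RPKM in FGR and 256.3 RPKM in WT. Lengths of several members in the files are those of the coding sequence alone or of long models, so such levels are approximate.

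A sum over a type's members does not depend on how reads were divided among near-identical copies, if none was dropped or repeated. Whether reads matching several copies were dropped or counted for each copy is not known. All members summed to 1788 and 2295 CPM in FGR replicates 1 and 2, against 2513 CPM in WT, or 0.177% and 0.227% of counts in FGR and 0.256% in WT. The log2 ratio of the FGR mean over WT was -0.30, with -0.49 in replicate 1 and -0.13 in replicate 2. Summed H3 was at 228.9 and 306.4 CPM in FGR and 384.2 CPM in WT, and summed H2A at 593.5 and 689.0 CPM in FGR and 811.3 CPM in WT. In these types both FGR sums were below WT by more than 1 SD of the FGR sums (54.8 CPM for H3 and 67.5 CPM for H2A). Summed H1 was at 143.0 and 210.5 CPM in FGR and 226.3 CPM in WT, and summed H2B at 365.3 and 507.5 CPM in FGR and 512.9 CPM in WT, where replicate 2 was close to WT. On the log2 scale the H1 sum over WT was -0.66 in replicate 1 and -0.10 in replicate 2, and the H2B sum -0.49 and -0.02. Summed H4 was at 457.2 and 581.9 CPM in FGR and 578.0 CPM in WT, so that replicate 2 was slightly above WT and the sign of the H4 difference rested on replicate 1. The ratio of summed H3 to summed H4 was 0.501 and 0.527 in FGR and 0.665 in WT.

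**Figure D2:**
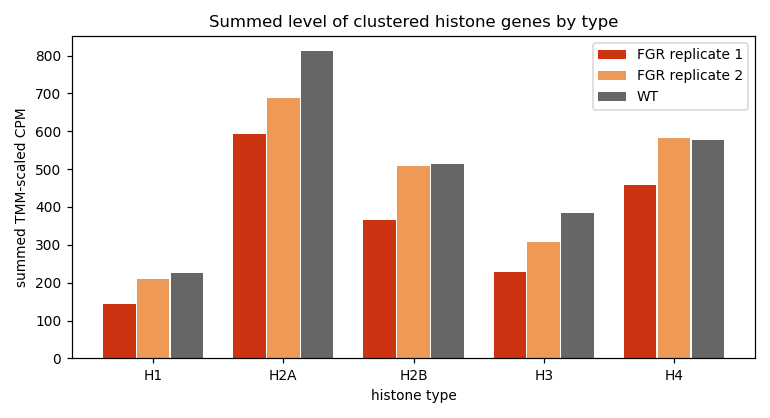
Summed TMM-scaled CPM of all members of each histone type in the 2 FGR libraries and the WT library, with 1 bar a library and no error bars. H3 and H2A were below WT in both FGR libraries, while H4 in FGR replicate 2 (581.9 CPM) was level with WT (578.0 CPM).

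By cluster, the sums were as follows. Cluster 1, the large S-phase cluster, summed to 1119 and 1572 CPM in FGR, against 1758 CPM in WT (log2 ratio of the FGR mean over WT -0.39), and 13 of its 54 tested members fell. This ratio was -0.65 in replicate 1 and -0.16 in replicate 2. Cluster 2 summed to 379.3 and 418.8 CPM in FGR and 482.8 CPM in WT (-0.27), and 3 of 10 fell, all H3 genes. Cluster 3 summed to 240.2 and 252.1 CPM in FGR and 225.6 CPM in WT (0.13), and its 3 members included the 1 that rose. The cluster 3 value was 0.041 without Hist3h2ba. The difference between clusters was not tested.

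The FGR libraries differed from each other across the family. FGR replicate 1 was below replicate 2 for 66 of 68 tested members, against 50.8% of all tested genes. It was at 0.8 of replicate 2 or less for 51, or 75.0%, against 15.7% of all tested genes. The exceptions were Hist2h2ab, at 9.79 and 7.04 CPM in replicates 1 and 2, and its neighbour Hist2h2ac, at 25.1 and 20.0 CPM; their WT values were 11.9 and 29.5 CPM. The widest gaps above 1 CPM were those of Hist1h3g (3.00 and 7.66 CPM), Hist1h1b and Hist1h2bk. For the sum of all members the ratio of replicate 1 to replicate 2 was 0.779 (exact 95% binomial interval 0.772 to 0.786, counting error only), and each FGR library being 1 sample, no test of this gap can be had.

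**Figure D3:**
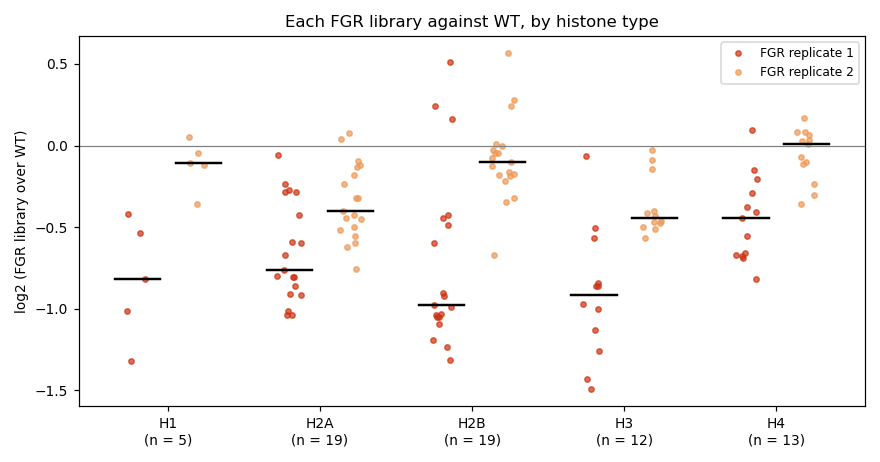
Log2 ratio of each FGR library over WT for every tested member, by histone type, with black lines at the medians. The medians in FGR replicate 1 lie between -0.98 and -0.45, and those in FGR replicate 2 between -0.44 and 0.01.

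H2A and H2B genes often lie head to head and share the DNA between them as promoter. In GENCODE M21, 14 such neighbouring pairs were found among the members, and both genes were tested in 13. The H2A gene fell by edgeR in 6 of the 13 and the H2B gene in 0, where the same tool gave 9 H2B genes of the family at an unadjusted p under 0.05. The median log2 fold changes of FGR over WT were nonetheless close, -0.55 for H2A partners and -0.49 for H2B partners. The H2A partner had the lower fold change in 10 of 13 pairs. In 10 of 13 pairs the H2B partner had the lower ratio of FGR replicate 1 over replicate 2, with medians of -0.80 for H2B partners and -0.44 for H2A partners on the log2 scale. Hist1h2ad had -0.26 and its H2B partner Hist1h2bf -0.88; Hist1h2ah had -0.36 and Hist1h2bk -1.06. Partners that share 5′ DNA thus had unequal gaps between the FGR libraries. Hist2h2ac and Hist2h2be lay on opposite sides of WT, with log2 fold changes of -0.38 and 0.54, neither called. Members share sequence, libraries and reads, so the pairs are no replicates and carry no test.

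**Figure D4:**
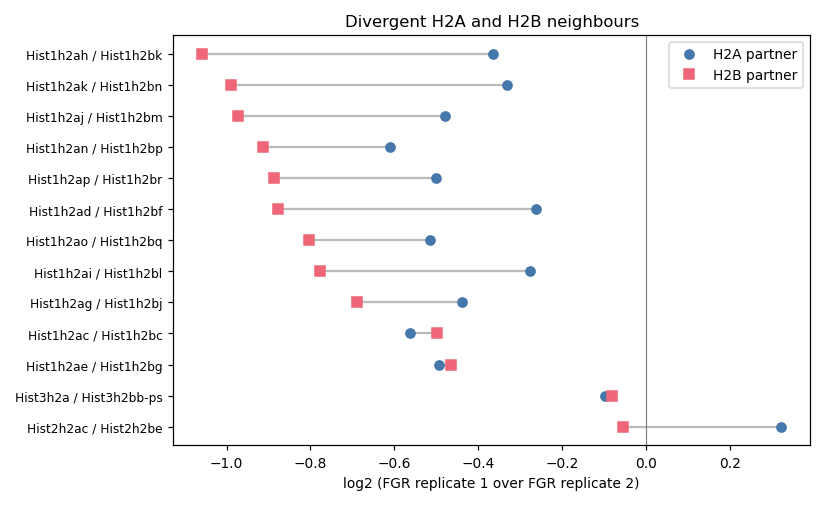
Log2 ratio of FGR replicate 1 over FGR replicate 2 for the 13 head-to-head pairs, with circles for the H2A and squares for the H2B partner, joined within a pair. Squares lie left of circles in 10 pairs, by the widest margin for Hist1h2ah and Hist1h2bk.

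Transcript models of the members end in different places. The longest GENCODE M21 model stops within 100 bases after the stem-loop for 21 members, runs further for 22 and holds no stem-loop match for 27. This grouping was made after the values had been seen and carries no test. The median log2 fold change was -0.50 for tested members ending at the stem-loop, of which 6 of 21 fell, and -0.28 for those running past it, of which 4 of 21 fell and 1 rose. Tested members with no match in the model had a median of -0.52, as low as those ending at the stem-loop, and 6 of 26 fell. A poly(A) signal (AATAAA or ATTAAA) within 40 bases of the model's end was found for 16 members, which summed to 559.2 and 682.4 CPM in FGR and 678.2 CPM in WT. The other 54 summed to 1229 and 1613 CPM in FGR, against 1834 CPM in WT. Of the 15 tested members with the signal, 9 were below WT in both FGR libraries, 1 fell (Hist2h3c1) and 1 rose (Hist3h2ba), with a median log2 fold change of -0.31, against -0.50 for the 53 without it. Among models running past the stem-loop the median was -0.26 with the signal and -0.28 without it.

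Lists of genes that act with the histones were read from the same fit. The S phase and DNA replication list had 0 of 25 genes called by edgeR, DESeq2, limma-voom or the robust fit. Its median log2 fold change was -0.08. At an unadjusted p under 0.05 in edgeR, 3 were lower and 1 higher, against 2535 and 2150 of all 25561 tested genes. Pcna, the sliding clamp of DNA polymerase and the most abundant of them, was at 45.3 and 49.9 CPM in FGR and 49.1 CPM in WT. In the G2 and mitosis list 19 of 20 genes were below WT in both FGR libraries, against 38.2% of all tested genes. Of these 20, 2 fell, against 2.59% of all tested genes, and 0 rose. At an unadjusted p under 0.05, 12 were lower, and the median was -0.58. Ccnb1, the mitotic cyclin B1, was at 3.69 and 4.94 CPM in FGR, against 7.38 CPM in WT (log2 fold change -0.78 ± 0.18, adjusted p = 0.0281), and Prc1, of the spindle midzone, at 13.02 and 15.01 CPM in FGR, against 20.1 CPM in WT (adjusted p = 0.0384). DESeq2 called 0 of these 20, limma-voom 3 and the robust fit 2, all lower. Top2a, a topoisomerase of dividing cells, was at 15.4 and 27.1 CPM in FGR and 31.9 CPM in WT (adjusted p = 0.137). This list had medians of -0.93 in replicate 1 and -0.28 in replicate 2, beside -0.78 and -0.17 for the clustered histones and -1.30 and -0.63 for the leptomeningeal list. The summed level of the mitosis list was 105.8 and 158.0 CPM in FGR and 185.7 CPM in WT. That of the neural progenitor list was 949.5 and 1053 CPM in FGR and 1191 CPM in WT. Within it Fabp7 alone was at 370.0 and 360.4 CPM in FGR and 483.0 CPM in WT. Of the 12 progenitor genes 3 fell (Gfap, Hopx and Fabp7), and 7 were below WT in both FGR libraries. Their median log2 fold change was -0.14, and the robust fit called 1 lower and 1 higher. All 10 leptomeningeal markers were below WT in both FGR libraries, with summed levels of 366.1 and 597.6 CPM in FGR and 929.4 CPM in WT. The part of these cells in the histone values was not tested.

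Genes for making and ending histone mRNA (18 matched of 19 listed) had 0 called in edgeR and in each other tool, with 1 lower and 4 higher at an unadjusted p under 0.05 and a median of 0.08. Slbp, the stem-loop binding protein, was at 55.2 and 54.1 CPM in FGR and 50.05 CPM in WT (adjusted p = 0.347), and Npat, the activator of the clusters, at 37.9 and 39.0 CPM in FGR and 32.5 CPM in WT (adjusted p = 0.135). Lsm11, of the U7 particle that cuts histone mRNA and the most abundant listed, was at 208.4 and 192.6 CPM in FGR and 202.8 CPM in WT. Of 19 histone chaperone genes 0 were called in any of these tools, with 0 lower and 3 higher at an unadjusted p under 0.05 and a median of 0.08; Atrx, the most abundant, was at 506.4 and 467.3 CPM in FGR and 429.6 CPM in WT.

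In most cases, though not all, histone genes outside the clusters are transcribed through the cell cycle and make polyadenylated mRNA. Of 13 tested, the 1 that fell was Cenpa, the centromeric H3 variant, at 2.07 and 3.15 CPM in FGR, against 4.90 CPM in WT (log2 fold change -0.92 ± 0.23, adjusted p = 0.0352; lost in DESeq2). The list's median was -0.01. H3f3b, which encodes the replacement H3 variant, was at 584.4 and 618.0 CPM in FGR and 547.6 CPM in WT (adjusted p = 0.538).

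A list of RNAs made without a poly(A) tail asks whether others of that kind were low too. In 8 of its 9 tested genes both FGR libraries were above WT, against 38.5% of all tested genes. The median log2 fold change was 0.25. The edgeR test called 0, with 0 lower and 2 higher at an unadjusted p under 0.05. DESeq2 called 1, limma-voom 2 and the robust fit 1 higher. The list also held Snhg1, a spliced host transcript. Rn7s2, a copy of the signal recognition particle RNA, was at 36383 and 39637 CPM in FGR and 32041 CPM in WT. The part of the recovery of tail-less RNA in the histone values was not tested.

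**Figure D5:**
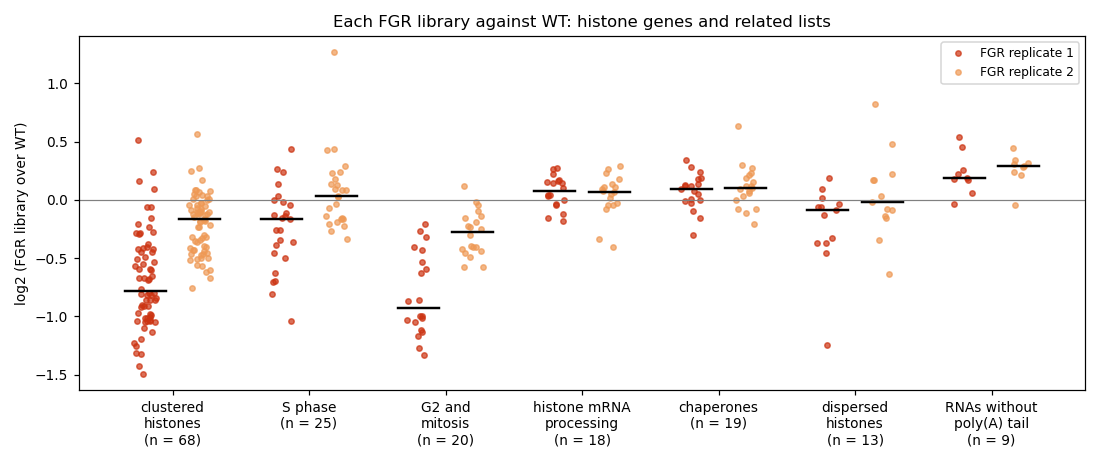
Log2 ratio of each FGR library over WT for the tested clustered histone genes and 6 lists of related genes, 1 point a gene, with black lines at the medians. The clustered histones (-0.78 and -0.17) and the mitosis list (-0.93 and -0.28) have medians below 0 in both libraries, as have the dispersed histones (-0.08 and -0.02). Medians were above 0 in both for histone mRNA processing (0.07 and 0.07), chaperones (0.09 and 0.10) and RNAs without a poly(A) tail (0.19 and 0.29), and lay on either side of 0 for the S phase list (-0.16 and 0.03).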

How the data were processed

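Raw read counts per gene, with a gene length and an RPKM value, were deposited by the authors in 1 table per library with no header. HISAT2 is the tool listed, per the submitters' processing notes. No version, counting program or build is given in the sources used here, nor is the treatment of reads from near-identical copies, of which a median of 48.2% of each member's 50-base windows occurred in another member. The models of Hist1h2be and Hist1h1e overlap. The deposited RPKM equalled count over length and total within 0.1 percent and was used for levels per length alone. Of the 70 IDs, 68 were found in GENCODE M21 and the other members by symbol.

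The test was the quasi-likelihood F test of edgeR 4.0.16 (R 4.3.3), two-sided, on deposited counts scaled by TMM, for the 25561 genes kept by filterByExpr at a minimum count of 10. It left 1 residual degree of freedom, all of it from the 2 FGR libraries, which differed in sex by Xist and Ddx3y. Each gene's dispersion was moderated across genes, with a median of 13.02 prior degrees of freedom. The p-values and standard errors thus rest largely on the spread of other genes. The spread of WT was taken to equal theirs. Standard errors are the fold change over the square root of F. Alternatives used DESeq2 1.42.0, limma 3.58.1, other scalings and filters, and left out each FGR library. On simulated counts for FGR against WT (25049 genes), the fit recovered 49.3% of 67 genes set to a 1.5-fold difference. It recovered 83.6% of 67 set to 2-fold and 100.0% of 66 set to 4-fold, and made 8 calls among unchanged genes. Genes set to differ had a mean of at least 1 CPM, and each gene's counts were drawn independently. The simulation held no gap between the FGR libraries shared across a family, so its rates need not hold for the members. The members and lists were chosen with earlier results of these data known. Named genes were all called members, the 3 most abundant of each type, the 3 with the largest gap between FGR libraries and the 3 with the largest change against WT in each direction (mean of at least 1 CPM), and from each list the called genes up to 4 and the most abundant. Npat, Slbp, Snhg1, Hist4h4, Hist1h2ba, Hist1h2bf, Ddx3y and the untested members were named after their values were seen. The cell type marker lists are given mainly by their counts of calls, medians and summed levels.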

Additional observations from a re-analysis of the deposited data

How the results depend on the processing

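The count of members called moved with the filter and the tool, while the median fold change stayed between -0.51 and -0.46 across scalings and filters. Against 17 called (16 lower, 1 higher), there were 48 (46 lower, 2 higher) with no filter on low counts, 0 (0 and 0) with a mean of at least 1 CPM, 8 (8 and 0) in DESeq2 and 9 (7 and 2) with a robust fit; limma-voom and scaling by totals called 0 higher, and a threshold of 0.1 called 2 higher. Of the 16 that fell, 8 also fell in DESeq2, 6 in the robust fit and 16 in limma-voom. Over all genes, 1087 were called, against 2057 with no filter, 301 at a mean of at least 1 CPM and 357 in DESeq2; the cause was not tested. The median log2 fold change of the members was -0.47 and lay between -0.78 and -0.17 when an FGR library was left out, and the sum of all members (-0.30) between -0.49 and -0.13. The H4 sum (-0.15) was 0.0097 without FGR replicate 1 and -0.34 without replicate 2. Without the most abundant member of each type, cluster 3 was at 0.041 against 0.13, and the log2 ratio of FGR replicate 1 over replicate 2 at -0.42 against -0.36. The other types and clusters kept their direction under every alternative run. No paired analysis was possible because the groups share only 1 replicate number. With 1 WT library, its own spread is unknown.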
